A study of Mus musculus with 21 samples.

Results

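The 10 genes described here are risk genes of amyotrophic lateral sclerosis (ALS) and frontotemporal dementia (FTD), namely Grn, Tmem106b, Sod1, Optn, Tbk1, Sqstm1, Vcp, Chchd10, Ubqln2 and Mapt. They were chosen by symbol among the 48474 rows of the count table, and all 10 passed the filter on low counts that left 18248 genes for testing. RNA from the cortex of 21 mice was sequenced. The labels give the tissue as neocortex and the study's methods as brain cortex, while a legend of the study gives hippocampus for rNLS8 mice. The 10 rNLS8 mice, labelled TG, carried a tetO-driven human TDP-43ΔNLS, which lacks the nuclear localization signal, and the NEFH-tTA driver. This driver uses the promoter of the neurofilament heavy chain and expresses mostly in neurons. The 11 controls, labelled WT, were littermates that the series text describes as monogenic, so they carried part of the system. All animals, controls included, had been injected with a control antisense oligonucleotide that targets no transcript (350 µg in 10 µL, into the ventricle, at 17 to 19 weeks of age). Doxycycline diet at 200 mg/kg, which holds the transgene silent, was stopped 2 weeks after the injection, and tissue was taken 3 weeks after that. By the series text the mice came from independent cohorts, which the sample labels call batches. These were A (4 controls and 3 rNLS8 mice) and B (7 controls and 7 rNLS8 mice). A legend of the study counts the 11 controls and 10 rNLS8 mice together as the same cohort.

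Most proteins encoded by these genes act in the removal of proteins and organelles. Progranulin and TMEM106B belong to the lysosome, optineurin and p62 (encoded by Sqstm1) hand ubiquitinated cargo to autophagosomes, TBK1 is the kinase that activates such receptors, and VCP and ubiquilin-2 carry ubiquitinated proteins to degradation. SOD1 detoxifies superoxide, CHCHD10 belongs to the intermembrane space of mitochondria, and Mapt encodes tau, which binds axonal microtubules. Mutations or common variants in the human genes cause or modify ALS, FTD or both, and progranulin is made by microglia as well as neurons in brain.

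Each mouse had between 20700912 and 22263809 counted reads. Tardbp, the mouse counterpart of the transgene, had between 2253 and 2827 normalized counts in controls, between 4405 and 5053 in the rNLS8 mice of cohort B, and 2363, 2903 and 3091 in those of cohort A, of which mouse T61340 at 2363 lay within the control range. How far reads of the human transgene were counted on this mouse gene is not given in the sources used here. The neuron and neocortex markers were all counted in both groups, with no marker at 0. Summed striatum markers varied widely, between 5877 and 32061 normalized counts in controls and between 5558 and 26732 in rNLS8 mice. Hippocampus markers summed to between 4298 and 6850 in controls and between 2895 and 4334 in rNLS8 mice. The cause of these spreads was not tested. The sex of the mice is not in the labels. With more than 100 counts taken as counted, all 7 mice of cohort A had Xist and none had the Y-linked Ddx3y, while in cohort B Ddx3y was counted in 4 controls and 5 rNLS8 mice, and the rNLS8 mouse T_70267 had no count of either gene. Without T61340 and T60303, a cohort A mouse far from its group for several genes, 6 members still differed between the genotypes, as in all mice, beside 41.7% of all genes.

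Between the genotypes, 6 of the 10 genes differed at an adjusted p-value under 0.05, beside a background of 44.7% of all genes tested. Grn and Optn rose in rNLS8 mice, and Ubqln2, Sod1, Tbk1 and Mapt fell. The share of all genes called was 23.0% for higher and 21.7% for lower, the background of each list and marker set below. The members' median log2 fold change was -0.03, with a range from -0.47 to 0.76, and the median over all genes tested was -0.00. Values in rNLS8 and control mice did not overlap for 3 members, Grn, Optn and Ubqln2, beside 7.65% of all genes. With 44.7% of genes called, 6 members of 10 is a share near the background. Unless a cohort is named, the adjusted p-values come from the quasi-likelihood test of edgeR, fitted with genotype and cohort and adjusted over all genes. Normalized counts are counts scaled to the mean effective library size.

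**Figure D1:**
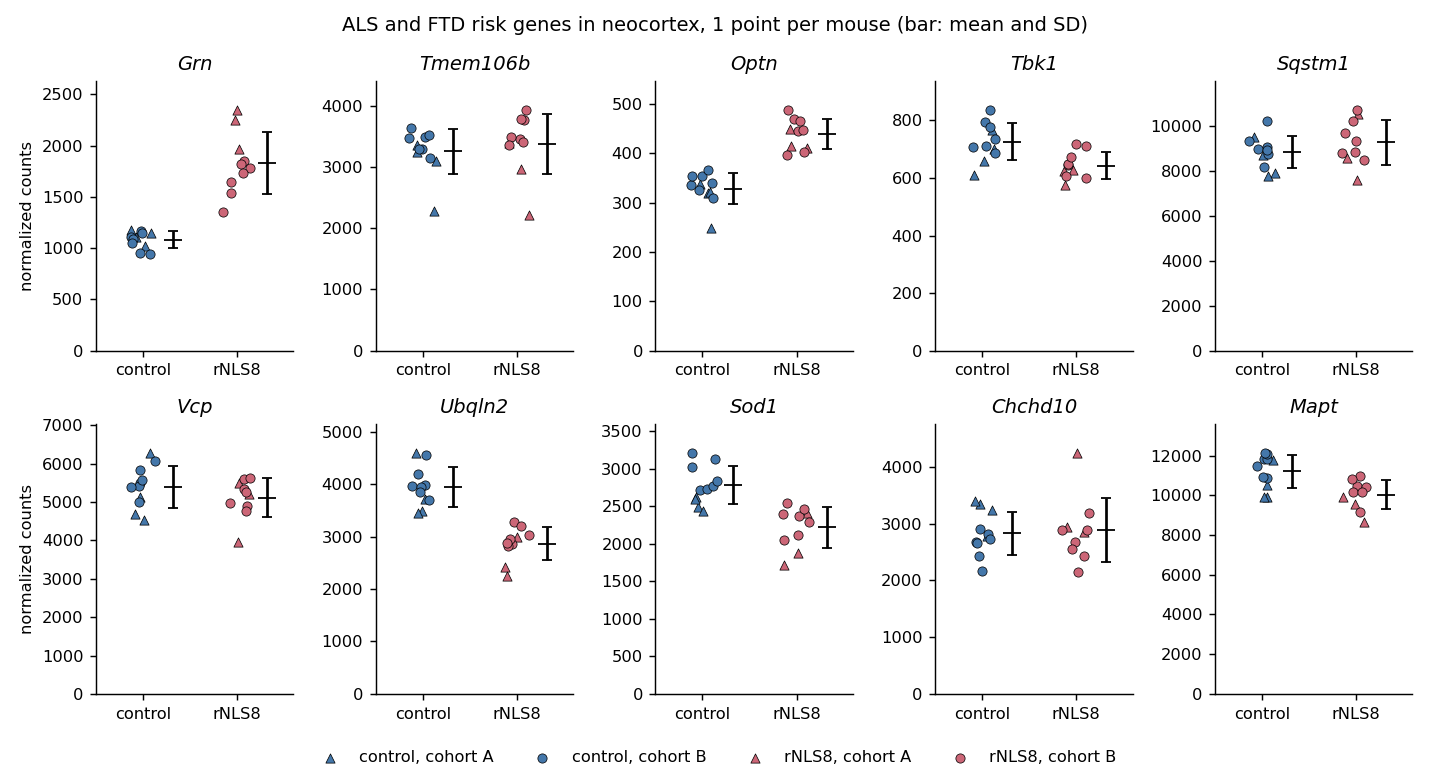
Normalized counts (y axis, starting at 0) of the 10 risk genes in each of 11 control and 10 rNLS8 mice, with triangles for cohort A, circles for cohort B and bars for mean and SD. The rNLS8 mice sit above every control for Grn and Optn and below every control for Ubqln2, while the other 7 genes overlap.

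The upstream sequences of Grn, Sod1, Vcp and Tmem106b are shown because Grn had the largest change among the members and because the other 3 held the only matches found before the start site. Promoters from 250 bases before to 50 bases after the start, taken from RefSeq for GRCm38.p6, were at hand for 8 of the 10 genes, all but Ubqln2 and Mapt. Both strands were searched. The antioxidant element TGACNNNGC, in capitals below, was present in 12.5% of 27025 promoters and in 3 of the 8. The stretches end where annotated exons begin.
Grn, chr11:102430257-102430314, plus strand: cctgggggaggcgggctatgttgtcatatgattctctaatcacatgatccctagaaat
Sod1, chr16:90220512-90220753, plus strand: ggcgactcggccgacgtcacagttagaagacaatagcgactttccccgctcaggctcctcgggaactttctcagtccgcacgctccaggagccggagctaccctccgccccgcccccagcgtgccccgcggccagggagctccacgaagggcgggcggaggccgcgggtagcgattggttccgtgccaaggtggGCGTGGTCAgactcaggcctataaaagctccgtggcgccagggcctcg
Vcp, chr4:43000508-43000757, minus strand: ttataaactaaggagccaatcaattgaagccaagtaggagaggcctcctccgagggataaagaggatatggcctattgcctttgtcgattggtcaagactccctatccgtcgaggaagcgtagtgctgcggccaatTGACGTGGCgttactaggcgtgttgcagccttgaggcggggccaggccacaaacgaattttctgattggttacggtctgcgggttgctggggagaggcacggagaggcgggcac
Tmem106b, chr6:13069509-13069758, plus strand: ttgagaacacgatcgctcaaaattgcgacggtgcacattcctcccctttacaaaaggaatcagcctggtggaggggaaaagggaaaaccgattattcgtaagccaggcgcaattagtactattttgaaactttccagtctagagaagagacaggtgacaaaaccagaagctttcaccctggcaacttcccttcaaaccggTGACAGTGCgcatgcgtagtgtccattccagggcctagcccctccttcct
The match lay at -56 to -48 from the start site in Sod1 (on the opposite strand), at -114 to -106 in Vcp and at -50 to -42 in Tmem106b. Of these genes, Sod1 fell and the other two did not pass the test. The E-box CACGTG, held by 7.24% of promoters, was found in Tbk1 at 5 to 10 bases after the start. The longer TFEB site TCACGTGA, which overlaps the E-box letters and occurred in 1.01% of promoters, and the interferon-stimulated response element, in 3.49%, had no match in the 8 promoters. These counts describe letters only.

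Grn, which encodes progranulin (chromosome 11 from 102430507 to 102436809, plus strand), was higher in every rNLS8 mouse than in every control. Controls had 943 normalized counts at the lowest, 1110 at the median and 1178 at the highest. The rNLS8 mice had 1354 at the lowest, 1805 at the median and 2349 at the highest. The lowest rNLS8 mouse was T_70267, and the mice at the top were those of cohort A, with 2349, 2249 and 1968. The mean was 1084 ± 82.6 (SD, n = 11) in controls and 1830 ± 302 (SD, n = 10) in rNLS8 mice, a fold change of 1.69 (log2 0.76, standard error 0.0629, 95% confidence interval 0.63 to 0.89, adjusted p = 8.34e-10). By log2 fold change Grn was ranked 472 from the highest of 18248 genes. Without T61340 and T60303 the log2 fold change was 0.69. Grn shares 68 of its 3474 exonic bases with Fam171a2 on the opposite strand, and whether reads were counted by strand is not given in the sources used here. Fam171a2 had a log2 fold change of 0.02 (adjusted p = 0.778).

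Microglia markers moved with Grn. Of 12 markers, 7 were higher and 1 (P2ry12, a receptor of homeostatic microglia) was lower, and their summed normalized counts lay between 10218 and 11971 in controls and between 11023 and 17196 in rNLS8 mice. Without T61340 and T60303, 4 of the 12 were called higher. Of 11 markers of disease-associated microglia, 8 were higher, with sums between 9449 and 12899 in controls and between 12792 and 22713 in rNLS8 mice. In these bulk samples, more or fewer cells of a type and more or less RNA per cell cannot be told apart. After centering on the mean of each genotype and cohort, Grn and the mean microglia marker level had a Pearson correlation of 0.56 and a Spearman correlation of 0.50 across the 21 mice. The permutation p-values were 0.0189 (adjusted 0.197 over 40 relations of members with 4 marker scores) and 0.0424 (adjusted 0.339), and Pearson's correlation was 0.50 without T60303 and T61342, the mice farthest from the median. With the mean microglia marker level as an added covariate, itself higher in rNLS8 mice, the log2 fold change of Grn was 0.57 (standard error 0.0799, adjusted p = 1.54e-05).

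**Figure D2:**
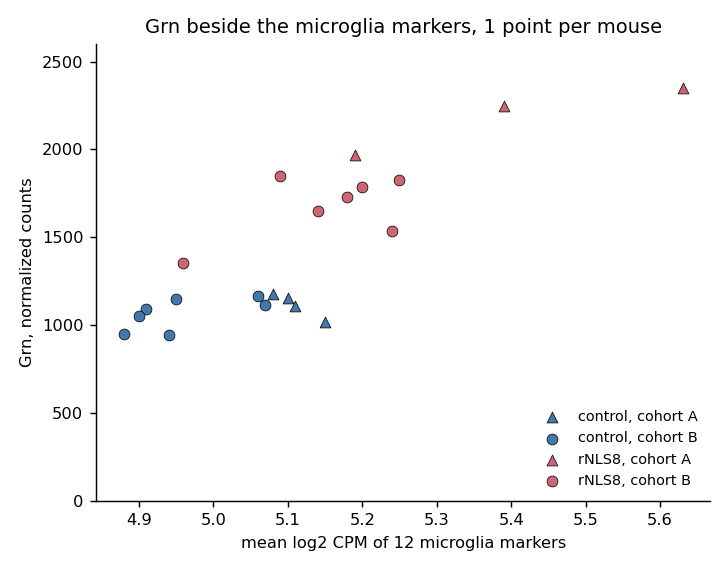
Normalized counts of Grn (y axis, starting at 0) against the mean log2 CPM of 12 microglia markers (x axis) in each of 21 mice, colored by genotype and shaped by cohort. Marker levels of 7 rNLS8 mice lie above every control and those of 3 within the control range of 4.88 to 5.15, and T60303 has the highest value on both axes.

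Genes around progranulin and the lysosome were higher more often than lower, with 9 of 16 tested rising and 3 falling, beside 23.0% and 21.7% of all genes. In cohort A alone 7 were higher and 0 lower, and with the microglia marker level as covariate 4 were higher and 0 lower. Gpnmb, a glycoprotein of lysosomes and of disease-associated microglia, had a log2 fold change of 1.14 (adjusted p = 0.00602). Its value rested largely on T60303 with 810 normalized counts against 136 in the next rNLS8 mouse, and it was 0.54 without that mouse (adjusted p = 0.00103) and -0.13 with the microglia marker level as covariate (adjusted p = 0.824). The cathepsin D gene Ctsd, a protease that processes progranulin, rose from 7140 to 11604 normalized counts (log2 fold change 0.71, adjusted p = 3.03e-09). Ctsd and Gpnmb also belong to the list of disease-associated microglia. Sort1, the neuronal receptor that takes up progranulin, fell from 13108 ± 864 (SD, n = 11) to 10986 ± 1146 (SD, n = 10), by 0.26 on the log2 scale (adjusted p = 0.000471). Psap, the prosaposin gene, whose product carries progranulin to the lysosome, fell by 0.21 (adjusted p = 0.00253).

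Tmem106b, encoding a lysosomal membrane protein (chromosome 6 from 13069759 to 13089269, plus strand), did not pass the test. The controls had 2273, 3300 and 3633 normalized counts at the lowest, the median and the highest, and the rNLS8 mice had 2211, 3430 and 3931. The groups overlapped, with 3 rNLS8 mice above every control and 1 below every control. The lowest mouse of each genotype was from cohort A. The log2 fold change was 0.03 (95% confidence interval -0.11 to 0.17, adjusted p = 0.753), with -0.05 in cohort A and 0.07 in cohort B. It was the only member with opposite signs in the cohorts. Among its relatives, Tmem106a rose from 22.3 ± 4.43 (SD, n = 11) to 40.6 ± 13.7 (SD, n = 10) normalized counts (log2 fold change 0.87, adjusted p = 0.00019), and Tmem106c had a log2 fold change of 0.11 (adjusted p = 0.0516). Across the 21 mice, centered as above, Tmem106b was related to the mean oligodendrocyte marker level, with a Spearman correlation of 0.70 (permutation p = 0.00069, adjusted 0.0276) and a Pearson correlation of 0.55 (permutation p = 0.00178, adjusted 0.0712). Pearson's correlation was 0.60 without T_69526 and T_70267. By Spearman's measure this was the 1 relation of 40 past the threshold, and by Pearson's there was none.

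Optn, encoding the autophagy receptor optineurin (chromosome 2 from 5020521 to 5064399, minus strand), rose in rNLS8 mice. Controls had 249, 335 and 365 normalized counts at the lowest, the median and the highest, and rNLS8 mice had 397, 446 and 488. Every rNLS8 mouse was above every control, and the lowest control was T61333 of cohort A. The mean went from 328 ± 31.4 (SD, n = 11) to 439 ± 30.9 (SD, n = 10), a fold change of 1.33 (log2 0.41, standard error 0.0539, adjusted p = 9.49e-07). Optn shares 73 of 3753 exonic bases with an antisense gene, 4930551O13Rik.

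Sqstm1, which encodes the autophagy receptor p62 (chromosome 11 from 50200152 to 50210820, minus strand), did not pass the test, with means of 8844 ± 714 (SD, n = 11) and 9278 ± 1000 (SD, n = 10). The rNLS8 mice spanned 7592 to 10710 normalized counts and the controls 7777 to 10207, so the controls lay within the span of the rNLS8 mice. Its log2 fold change was 0.06 (95% confidence interval -0.05 to 0.18, adjusted p = 0.389), and 0.14 (adjusted p = 0.0403) with scaling by total counts instead of TMM, which called 47.0% of all genes. Sqstm1 shares 580 of 3356 exonic bases with Mrnip, which had 163 counts on average in controls and 172 in rNLS8 mice.

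Of 13 further autophagy receptors and ATG8 proteins, 2 rose and 2 fell, beside 23.0% and 21.7% of all genes. Calcoco1, a receptor for endoplasmic reticulum and Golgi, rose from 1232 ± 90.4 (SD, n = 11) to 1604 ± 163 (SD, n = 10) normalized counts (log2 fold change 0.37, adjusted p = 6.93e-07). Map1lc3b, encoding the autophagosome protein LC3B, rose from 3982 ± 243 (SD, n = 11) to 4947 ± 504 (SD, n = 10), with a log2 fold change of 0.32 (adjusted p = 2.68e-06). The genes that fell were Bnip3l, a receptor for mitochondria, by 0.32 on the log2 scale (adjusted p = 2.52e-06), and Tollip, by 0.18 (adjusted p = 0.000904). Nbr1, the receptor most like p62 in structure, had a log2 fold change of -0.08 (adjusted p = 0.0699). With DESeq2 the list had 4 lower genes. Of 8 genes around KEAP1 and NRF2, the stress response pathway that p62 joins, 4 rose and none fell, with 4 not past the test, and in cohort A alone 1 was called higher. Hmox1, the heme oxygenase gene, rose from 79.7 ± 12.6 (SD, n = 11) to 161 ± 42.5 (SD, n = 10) normalized counts (log2 fold change 1.02, adjusted p = 1.46e-07), and Keap1, the repressor of NRF2, rose from 1630 ± 53.1 (SD, n = 11) to 1992 ± 152 (SD, n = 10), with a log2 fold change of 0.29 (adjusted p = 1.95e-06, and 0.0709 in cohort A alone). Nqo1, a standard NRF2 target, had a log2 fold change of 0.10 (adjusted p = 0.47).

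Tbk1, the kinase that phosphorylates optineurin and p62 (chromosome 10 from 121546455 to 121586794, minus strand), was slightly lower in rNLS8 mice. Controls had 609, 713 and 837 normalized counts at the lowest, the median and the highest, and rNLS8 mice had 575, 637 and 717. The groups overlapped, with 5 controls above every rNLS8 mouse and 3 rNLS8 mice below every control. The mean fell from 726 ± 65 (SD, n = 11) to 643 ± 46.5 (SD, n = 10), which on the log2 scale was -0.18 ± 0.0483 (standard error), with an adjusted p = 0.00329. The call was lost without TMM, scaling by total counts (-0.11, adjusted p = 0.0905), in cohort A alone (-0.14, adjusted p = 0.456) and with the microglia marker level as covariate (-0.14, adjusted p = 0.166).

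Of 9 adaptors of TBK1 and genes upstream of it, 2 rose and 2 fell, beside 23.0% and 21.7% of all genes. Tbkbp1, an adaptor that binds TBK1, rose from 1084 ± 215 (SD, n = 11) to 1548 ± 423 (SD, n = 10) normalized counts (log2 fold change 0.53, adjusted p = 1.54e-07), and Ticam1, the adaptor of Toll-like receptor 3, rose from 105 ± 12.9 (SD, n = 11) to 130 ± 18.7 (SD, n = 10), with a log2 fold change of 0.33 (adjusted p = 0.00027). Ikbkg and Traf3 fell, by 0.22 (adjusted p = 0.00018) and by 0.17 (adjusted p = 0.0224) on the log2 scale. Traf3 was not called within cohort A (adjusted p = 0.188) or within cohort B (adjusted p = 0.111), and Ikbkg (adjusted p = 0.204) and Ticam1 (adjusted p = 0.0611) were not called within cohort A. Without T61340 and T60303 or with scaling by total counts only, 1 gene of this list, Ikbkg, was lower. Of all genes, 3726 and 2752 were lower in these settings, against 3964 in the main test. All 14 interferon-stimulated genes tested, which lie downstream of TBK1 among other kinases and receptors, rose. Irf7 had 49.6 ± 12.9 normalized counts (SD, n = 11) in controls and 464 ± 225 (SD, n = 10) in rNLS8 mice (log2 3.21, adjusted p = 6.27e-12), and Isg15 had 29.6 ± 7.66 (SD, n = 11) and 265 ± 116 (SD, n = 10), with a log2 fold change of 3.17 (adjusted p = 6.27e-12). Tbk1 and these genes thus moved in opposite directions.

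Vcp, encoding the segregase that pulls ubiquitinated proteins from complexes and membranes (chromosome 4 from 42979964 to 43000507, minus strand), did not pass the test. Controls had 4526 normalized counts at the lowest and 6273 at the highest, and rNLS8 mice 3945 and 5638. The lowest rNLS8 mouse, T60303, stood apart from the next at 4772. The log2 fold change was -0.08 (95% confidence interval -0.21 to 0.04, adjusted p = 0.268). Of 24 VCP cofactors tested, 11 rose and 5 fell, beside 23.0% and 21.7% of all genes. Ufd1, the partner in the complex that recruits VCP to ubiquitin, rose from 1123 ± 62.2 (SD, n = 11) to 1615 ± 134 (SD, n = 10) normalized counts (log2 fold change 0.52, adjusted p = 2.63e-09), and the groups did not overlap. Its complex partner Nploc4 rose with a log2 fold change of 0.28 (adjusted p = 5.7e-06). Ubxn1, a UBX domain adaptor, rose from 1224 ± 71.9 (SD, n = 11) to 1687 ± 223 (SD, n = 10), with a log2 fold change of 0.46 (adjusted p = 8.85e-07). Among the cofactors that fell, Ubxn2b fell by 0.37 (adjusted p = 0.000426) and Ngly1, the cytosolic peptide N-glycanase, by 0.30 (adjusted p = 1.62e-05) on the log2 scale. With scaling by total counts only, 17 cofactors were higher and 4 lower, beside 5832 and 2752 of all 18248 genes. The main test called 4190 genes higher and 3964 lower. Vcp shares 352 of 4851 exonic bases with 1700022I11Rik, which had almost no counts.

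Ubqln2, encoding a ubiquilin that shuttles ubiquitinated proteins to the proteasome (chromosome X from 153498232 to 153501562, plus strand), fell most among the members. Controls had 3456 normalized counts at the lowest, 3941 at the median and 4590 at the highest. The rNLS8 mice had 2244, 2915 and 3284. Every rNLS8 mouse lay below every control, and the lowest were T61340 and T60303 of cohort A. The mean went from 3947 ± 377 (SD, n = 11) to 2867 ± 322 (SD, n = 10), a fold change of 0.72 (log2 -0.47, standard error 0.0583, adjusted p = 4.14e-07). It was -0.41 without those mice. Since Ubqln2 is X-linked, cohort B was also read by Ddx3y. Among mice with Ddx3y counts, the 4 controls ranged from 3706 to 4195 and the 5 rNLS8 mice from 2812 to 3284, and among those without, the 3 controls ranged from 3840 to 4550 and the 2 rNLS8 mice from 2861 to 2871. In each class the rNLS8 mice were below the controls. Of the 2 rNLS8 mice without Ddx3y, T_70267 had no Xist counts either, so its sex is not known. Of 8 other ubiquilins and partners of the BAG6 shuttle, 3 rose and 2 fell, beside 23.0% and 21.7% of all genes. Its paralog Ubqln1 fell from 3928 ± 243 (SD, n = 11) to 3462 ± 208 (SD, n = 10), by 0.18 on the log2 scale (adjusted p = 0.000947), while Ubqln4 had a log2 fold change of 0.11 (adjusted p = 0.0883). Bag6, the chaperone for stranded membrane proteins, rose from 4054 ± 352 (SD, n = 11) to 4978 ± 328 (SD, n = 10), with a log2 fold change of 0.29 (adjusted p = 6.18e-06), and its co-chaperone Sgta rose with a log2 fold change of 0.27 (adjusted p = 0.000257). With scaling by total counts only, 6 genes of this list were higher, beside 5832 of all genes against 4190 in the main test. How reads that match more than 1 ubiquilin gene were counted is not given in the sources used here.

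Sod1, encoding cytosolic copper-zinc superoxide dismutase (chromosome 16 from 90220762 to 90226333, plus strand), fell. Controls had 2437, 2733 and 3207 normalized counts at the lowest, the median and the highest, and rNLS8 mice had 1715, 2330 and 2544. The groups overlapped narrowly, with 8 of 10 rNLS8 mice below every control. The mean went from 2778 ± 251 (SD, n = 11) to 2222 ± 273 (SD, n = 10), a fold change of 0.792 (log2 -0.34, standard error 0.0534, adjusted p = 1.57e-05). Sod2, the mitochondrial manganese enzyme, fell from 3075 ± 149 (SD, n = 11) to 2209 ± 318 (SD, n = 10) without overlap of the groups (log2 fold change -0.50, adjusted p = 3.24e-07). The extracellular Sod3 had a log2 fold change of -0.13 (adjusted p = 0.189). Ccs, the chaperone that loads SOD1 with copper, rose from 284 ± 21.1 (SD, n = 11) to 327 ± 38.8 (SD, n = 10), with a log2 fold change of 0.21 (adjusted p = 0.00806), and it was not called without T61340 and T60303 or in either cohort alone.

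Chchd10, encoding a mitochondrial intermembrane space protein (chromosome 10 from 75933130 to 75937750, plus strand), did not pass the test. Controls ranged from 2168 to 3394 normalized counts and rNLS8 mice from 2155 to 4239, and the highest rNLS8 mouse, T61340, stood apart from the next at 3189. The log2 fold change was 0.04 (95% confidence interval -0.11 to 0.19, adjusted p = 0.664), and 0.00 without T61340 and T60303. Its paralog and binding partner Chchd2 fell from 3496 ± 394 (SD, n = 11) to 2088 ± 159 (SD, n = 10), with a log2 fold change of -0.72 (adjusted p = 2.37e-12) and no overlap between the groups. Among 16 partners in mitochondria, 3 rose and 4 fell, beside 23.0% and 21.7% of all genes. Chchd4, which imports proteins of this family, fell by 0.46 (adjusted p = 3.75e-08) and Opa1, the fusion GTPase of the inner membrane, by 0.39 (adjusted p = 1.96e-06) on the log2 scale, while C1qbp, a matrix protein, rose from 875 ± 58.6 (SD, n = 11) to 1391 ± 160 (SD, n = 10), with a log2 fold change of 0.67 (adjusted p = 1.76e-09). With scaling by total counts only, 6 of the partners were higher, beside 5832 of all genes against 4190 in the main test. Chchd10 shares 155 of 1575 exonic bases with Mmp11 on the opposite strand, which had few counts.

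Mapt, encoding tau (chromosome 11 from 104229409 to 104332090, plus strand), was lower in rNLS8 mice. Controls had 9891, 11471 and 12123 normalized counts at the lowest, the median and the highest, and rNLS8 mice had 8644, 10180 and 10995. All 10 rNLS8 mice were below the control median, and the groups overlapped. The mean fell from 11200 ± 827 (SD, n = 11) to 10028 ± 733 (SD, n = 10), which on the log2 scale was -0.17 ± 0.0415 (standard error), with an adjusted p = 0.00187. The table has a further row of the same symbol, Mapt-2, with 6866 ± 548 (SD, n = 11) and 5878 ± 464 (SD, n = 10) normalized counts and a log2 fold change of -0.23 (adjusted p = 0.000183), whose call was lost in cohort A alone (-0.21, adjusted p = 0.231) and with the microglia marker level as covariate (-0.13, adjusted p = 0.147). How reads were shared between these rows is not given in the sources used here, so the level of tau RNA is uncertain. With scaling by total counts only, the log2 fold change of Mapt was -0.09 (adjusted p = 0.0612), in cohort A alone it was -0.14 (adjusted p = 0.453), and with the microglia marker level as covariate it was -0.10 (adjusted p = 0.275).

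Neuron markers fell with Mapt, with 7 of 10 lower and none higher, and their sums lay between 232874 and 289547 in controls and between 162920 and 217432 in rNLS8 mice. None of these markers was at 0. Of 10 neocortex markers 5 were lower and 1 higher, with sums between 24749 and 33130 in controls and between 18438 and 24679 in rNLS8 mice. Of 10 astrocyte markers 5 were lower and 1 higher, with sums between 109755 and 137433 and between 98055 and 123069. Within genotype and cohort, Mapt and the mean neuron marker level had a Pearson correlation of 0.65 and a Spearman correlation of 0.61 over 21 mice (permutation p = 0.00537 and 0.0129, adjusted 0.107 and 0.187), and Pearson's was 0.68 without T60303 and T61340. Sqstm1 and Vcp, which did not pass the test between genotypes, had correlations of like size with this score (Pearson 0.67 and Spearman 0.61 for each, adjusted permutation p = 0.197 and 0.187), and without those mice Pearson's was 0.43 for Sqstm1 and 0.54 for Vcp. The part of neuron, neocortex and astrocyte markers in the decrease of Mapt, Ubqln2, Sod1 and Tbk1 was not tested. Of 21 tau kinases and microtubule-associated proteins, 5 rose and 9 fell, beside 23.0% and 21.7% of all genes. Cdk5r1, the activator p35 of the tau kinase CDK5, fell from 6768 ± 389 (SD, n = 11) to 4298 ± 367 (SD, n = 10), with a log2 fold change of -0.65 (adjusted p = 1.24e-10). Camk2a, a kinase of excitatory synapses that is also among the neuron markers, fell from 85219 ± 13291 (SD, n = 11) to 53502 ± 6847 (SD, n = 10), with a log2 fold change of -0.65 (adjusted p = 2.69e-09). The dendritic Map2 fell by 0.44 on the log2 scale (adjusted p = 0.000242), while the tau kinase gene Ttbk1 rose with a log2 fold change of 0.31 (adjusted p = 2.19e-05). Without T61340 and T60303, 6 genes of this list were lower, and with scaling by total counts only, 4. Of all genes, 3726 and 2752 were lower in these settings, against 3964 in the main test.

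**Figure D3:**
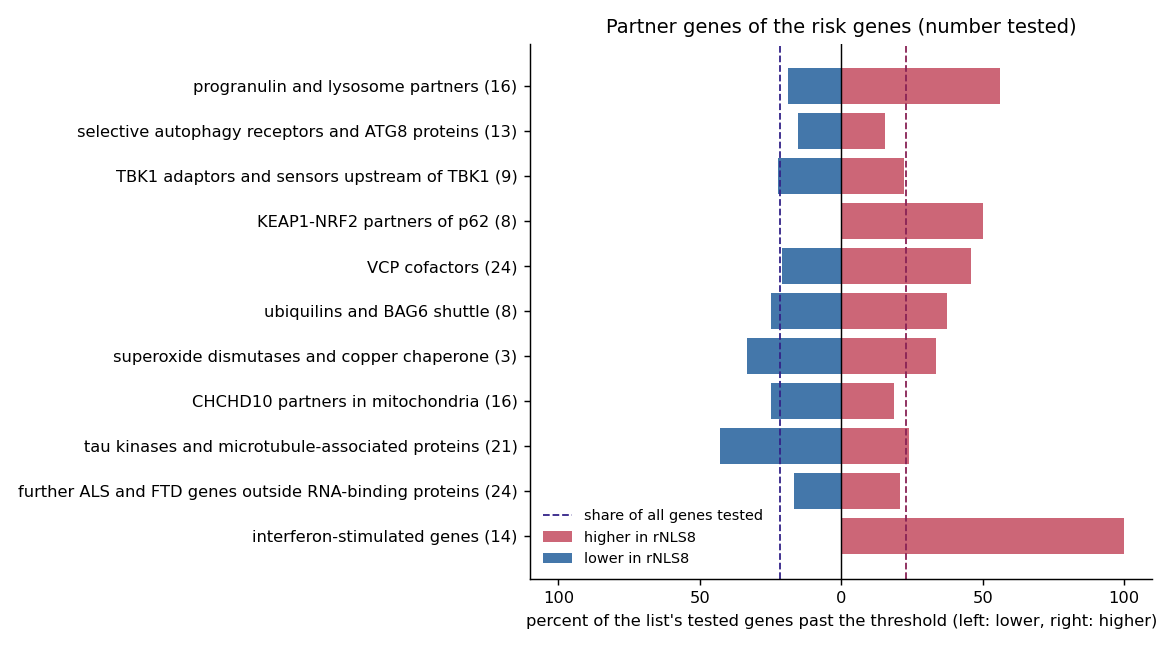
Percent of the tested genes of each partner list that were called higher (right) or lower (left) in rNLS8 mice, with the number tested in parentheses and dashed lines at the share of all genes, 23.0% higher and 21.7% lower. Of the interferon-stimulated genes 14 of 14 were higher, and of the tau kinases and microtubule-associated proteins 9 of 21 were lower.

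Of 24 further ALS and FTD genes, 5 rose and 4 fell, beside 23.0% and 21.7% of all genes. Cyld, the deubiquitinase linked to familial FTD with ALS, fell from 3532 ± 407 (SD, n = 11) to 2132 ± 349 (SD, n = 10) without overlap (log2 fold change -0.75, adjusted p = 1.09e-08). Trem2, a microglial receptor, rose from 213 ± 25 (SD, n = 11) to 318 ± 102 (SD, n = 10), with a log2 fold change of 0.59 (adjusted p = 3.27e-05). Tuba4a, a tubulin gene, fell by 0.56 on the log2 scale (adjusted p = 9.96e-08), and the mouse counterpart of C9orf72 rose with a log2 fold change of 0.28 (adjusted p = 1.16e-05). With scaling by total counts only, 10 genes of this list were higher, beside 5832 of all genes against 4190 in the main test. With the microglia marker level as covariate, 23.4% of all genes were called in place of 44.7%, and most lists shrank as well. In that setting 4 tau kinases and microtubule-associated proteins were lower and 3 higher, 2 further ALS and FTD genes were higher, 3 VCP cofactors were lower and 0 genes of the ubiquilin list were lower, while 4 genes around KEAP1 and NRF2, 2 autophagy receptors or ATG8 proteins and 2 TBK1 adaptors or upstream genes were higher, the same counts as in the main test. In cohort A alone, where 11.8% of all genes were called, 4 VCP cofactors were higher and 0 lower, 0 genes of the ubiquilin list were called, 2 tau kinases and microtubule-associated proteins were lower and 0 higher, and 2 further ALS and FTD genes were higher and 1 lower. The 14 interferon-stimulated genes were higher in both settings. Of the list genes named above as changed, Sort1, Psap, Tollip, Ikbkg, Traf3, Ticam1, Keap1, Ubxn2b, Ngly1, Ubqln1, Bag6, Sgta, Ccs, Map2, Ttbk1, C9orf72 and Tuba4a were not called in cohort A alone, with the same direction there as in all mice.

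The cohorts were then compared. In cohort A alone, 3 members passed the test (Grn, Optn and Ubqln2) beside 11.8% of all genes, and in cohort B alone the same 6 as in both cohorts passed beside 39.1%. The direction was the same in both cohorts for 9 of 10 members. Grn was 99.5% higher in cohort A (95% confidence interval of the log2 fold change 0.76 to 1.23, adjusted p = 0.000339) and 56.4% higher in cohort B (0.50 to 0.79, adjusted p = 5.49e-07). The interaction of genotype and cohort for Grn was -0.32 (B minus A, standard error 0.12, p = 0.0131 from edgeR), which did not pass adjustment (adjusted p = 0.853). Ubqln2 had -0.56 in cohort A and -0.43 in cohort B, and Optn had 0.49 and 0.38. Sod1 had -0.32 in cohort A (adjusted p = 0.128) and -0.34 in cohort B (adjusted p = 5.66e-05). By the interaction in edgeR, 0 genes passed adjustment (0% of genes), 1030 had an unadjusted p under 0.05, and Grn was the 1 member among them. Tardbp, which is not a member, had a log2 fold change of 0.26 in cohort A (95% confidence interval -0.01 to 0.52). In cohort B its log2 fold change was 0.79 (0.71 to 0.87), and its interaction in edgeR was 0.56 (p = 7.31e-06, adjusted p = 0.133). All mice with Ddx3y were in cohort B, which held mice with and without it in both genotypes. In cohort B, Grn had 1102 ± 58.3 normalized counts (SD, n = 3) in controls and 1446 ± 130 (SD, n = 2) in rNLS8 mice without Ddx3y, and 1038 ± 106 (SD, n = 4) and 1768 ± 80.5 (SD, n = 5) in those with it. The rNLS8 mice were thus higher in each class. Of the 2 rNLS8 mice without Ddx3y, T_69531 (1538) had Xist counts and T_70267 (1354) did not, so that class is not a clear sex group. Over both cohorts, the log2 fold change of Grn was 0.77 with Xist and 0.75 with Ddx3y as covariate. The part of sex in the difference between the cohorts was not tested.

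**Figure D4:**
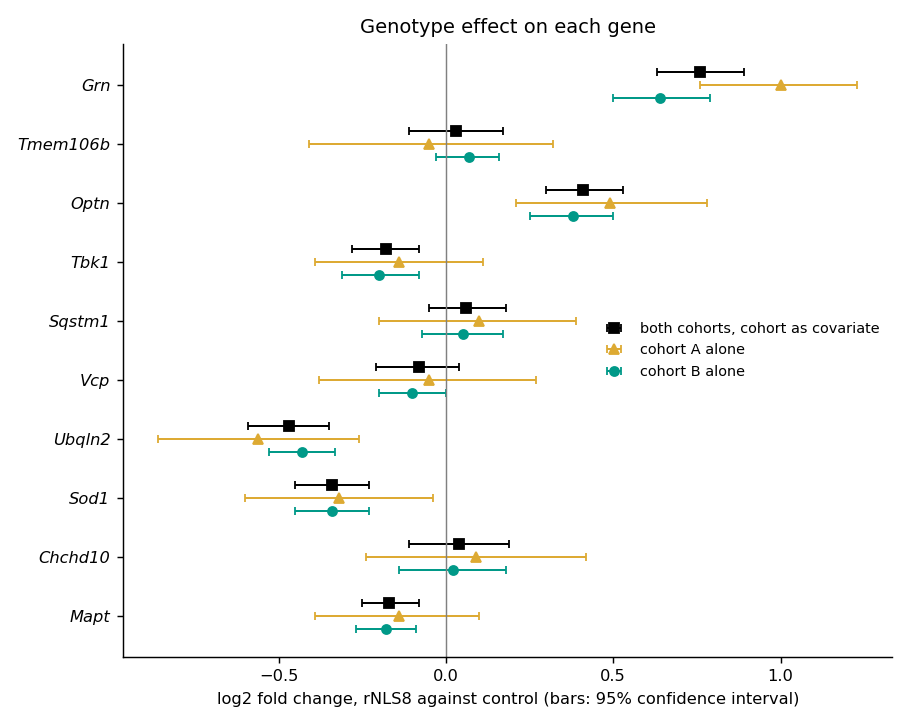
Log2 fold change of rNLS8 against control mice (x axis, bars for the 95% confidence interval) for each gene over both cohorts (squares), in cohort A (triangles) and in cohort B (circles). Grn has 0.64 in cohort B and lies farther right in cohort A, and Tmem106b is the member with points on opposite sides of 0.

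Levels of different genes were compared per transcript length, as normalized shares of transcripts (TPM) over the longest annotated transcript of each gene (GENCODE M21). In controls, Sqstm1 was highest at 510 ± 40.6 (SD, n = 11) and Optn lowest at 19.4 ± 1.84 (SD, n = 11). Between them came Mapt at 329, Chchd10 at 293, Vcp at 251, Ubqln2 at 182, Sod1 at 108, Tmem106b at 83.8, Grn at 71.4 and Tbk1 at 37.1. The level of Mapt left out the row Mapt-2, which had 6866 normalized counts in controls beside 11200 for Mapt. The order of Mapt and Sqstm1 is therefore uncertain. The ranges of mean and SD overlapped between Mapt and Chchd10, between Chchd10 and Vcp and between Tmem106b and Grn. In rNLS8 mice Grn reached 123 ± 18.6 (SD, n = 10) and moved from rank 8 to rank 6, above Tmem106b at 88.8 and Sod1 at 87.9. The order depended on the transcript used. Over the principal transcript, which is 641 rather than 3970 bases long for Sod1 and 1362 rather than 5253 for Mapt, controls had 1124 for Mapt, 593 for Sqstm1 and 593 for Sod1. On that scale rNLS8 mice had 483 for Sod1, 109 for Grn and 78.8 for Tmem106b, so that Grn lay below Sod1.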

How the data were processed

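RNA was sequenced in 21 mice (poly(A) RNA, paired-end), with genotype, cohort and mouse number taken from the labels. The deposited values are raw counts of reads for each gene symbol, which the authors made after alignment to GRCm38. The submitters' notes name HISAT, HISAT2, Bowtie, Bowtie2 and RSEM without their roles, and the counting step and its strand setting are not given in the sources used here. The table had 48474 rows, of which 13329 had no count. Rows of further copies of a symbol (2536, with 4.11% of counts) were kept. No column was left out.

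The main analysis used edgeR 4.0.16 (R 4.3.3): filter by expression (minimum count 10, minimum total 15), TMM, and the two-sided quasi-likelihood test with genotype and cohort, with Benjamini-Hochberg adjustment over 18248 genes at 0.05. The procedure was tested on simulated data. Marker scores were mean log2 CPM (prior count 2), and relations were tested with 100000 permutations within genotype and cohort in SciPy 1.17.1. Positions are from RefSeq for GRCm38.p6, exons from GENCODE M21. Genes named were the 10 members, Tardbp, Xist, close relatives, and from each list the 2 genes with the largest change among those called with a mean of at least 50 counts. 1 of these genes is not reported here. Other list genes, markers and genes that overlap a member were named after their values were seen. Alternatives were models without cohort in edgeR, DESeq2 1.42.0 with either model, other scalings and filters, each cohort alone, Xist as covariate, no further copies, and leaving out each mouse. Ddx3y or the microglia score as covariate, leaving out T61340 and T60303, and principal transcript lengths were alternatives chosen after seeing the data. The members and lists were chosen with earlier results of these data known. Each sample is a separate mouse.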

Additional observations from a re-analysis of the deposited data

Results flagged for a closer look

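The 10 rNLS8 mice were examined for single mice far from the rest in 41 groups of values, and 4 were found, measured as the gap of the highest or lowest mouse to the nearest divided by the whole range. Chance gives this in about 1 of 20 groups. For Vcp the lowest rNLS8 mouse, T60303, had 3945 normalized counts against 4772 in the next, a gap of 0.489 of the range. For Chchd10 the highest, T61340, had 4239 against 3189, a gap of 0.504. For Gpnmb the highest, T60303, had 810 against 136, a gap of 0.918. For Hmox1 the highest, again T60303, had 266 against 180, a gap of 0.56.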

How the results depend on the processing

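Cohort A alone, with 7 of the 21 mice, called 2195 genes and 3 members, where both cohorts called 8154 genes and 6 members. In that cohort the calls of Sod1, Tbk1 and Mapt were lost. Scaling by total counts only, without TMM, which moved the median of all genes by 0.08 on the log2 scale, called 5832 genes higher and 2752 lower, against 4190 and 3964, and 5 members, with Tbk1 and Mapt lost and Sqstm1 gained. With the mean microglia marker level as a covariate, 4275 genes and 4 members passed, the calls of Tbk1 and Mapt were lost, and the log2 fold change of Gpnmb turned to -0.13. That score differs between the genotypes itself, and the cause was not tested. In the other alternatives without leaving out single mice, 6 members passed. With single mice left out, between 7805 and 8363 genes passed. The calls of Grn (0.73 to 0.79), Optn, Ubqln2, Sod1, Tbk1 and Mapt held in 21 of 21 fits, and Sqstm1, Vcp, Chchd10 and Tmem106b passed in 0 of 21. No paired analysis was possible because the mouse numbers are unique to each animal. With 3 rNLS8 mice in cohort A, small changes such as that of Tbk1 could not be resolved there, since its 95% confidence interval ran from -0.39 to 0.11.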
